A study of Homo sapiens with 61 samples.

Results

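The results below describe resting human neurons in which the transcription factor gene JUN was silenced, compared with neurons that carried a control guide. The comparison holds the 5 libraries of JUN gRNA untreated and the 5 libraries of Control gRNA untreated, which are 10 of the 61 libraries of the series, and it covers the 20759 genes that passed the filter on low counts. All cells descended from the WTC11 line, established induced pluripotent stem cells of human origin, carried the machinery for CRISPR interference (a catalytically dead Cas9 fused to a repressor, which a guide RNA brings to a gene's start to silence it) and were turned into i3Neurons, which arise when the transcription factor NGN2 is switched on. Before differentiation a lentivirus delivered a guide RNA (gRNA) against JUN, one against ATF2, or a scrambled control. On day 14 cultures received either the vehicle DMSO (called untreated) or 5 nM vincristine, a drug that destabilises microtubules, and RNA was taken 16 hours later. The number and sequence of the guides are not given in the sources used here, so the groups stand for that guide design in 1 cell line. No source says whether replicates were separate differentiations, and p-values then measure only the spread between these libraries. Further groups are set beside the comparison where stated: JUN gRNA and Control gRNA with vincristine (5 libraries each), ATF2 gRNA untreated (5 libraries), and, from a separate experiment on WTC11 neurons with a doxycycline cassette for NGN2 and no guide RNA named, wild type (WT) untreated, WT with vincristine and a DLK LZK double knockout (double KO) untreated (4 libraries each).

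JUN is a basic leucine zipper protein that binds DNA as a dimer, with itself, with FOS proteins or with ATF proteins, and these dimers are known together as AP-1. The kinases JNK phosphorylate JUN, in neurons largely downstream of the kinases DLK and LZK that sense axon damage, and JUN is best known there for driving both the regeneration and the death programmes of injured neurons. AP-1 dimers of JUN and FOS favour the site TGACTCA, and dimers with ATF proteins favour the longer sites TGACGTCA and TGACATCA, the latter known from the promoter of JUN itself.

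These 3 motifs were searched, on both strands, in the window from 250 bases before to 50 bases after the start of each gene, in RefSeq sequence of GRCh38.p14. Sequence was found for 12360 of the 20726 symbols tested. The windows below are 30 bases on the gene's own strand, with the motif in capitals (TGAGTCA and TGATGTCA are the same motifs read on the other strand). They belong to JUN and to 4 of the 12 genes picked below as the largest falls, those that hold a motif. The others belong to 4 further genes described below that fell and hold one. All are shown so that the matches can be seen beside the values. A motif is also held by 7 named genes that rose (JUND, MAFF, DUSP10, DDIT3, ATF5, SST and VGF) and by ATF3, OMA1 and DAB1, which were not called.
JUN, chr1:58784096-58784125, minus strand: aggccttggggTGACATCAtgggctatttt
ANXA2, chr15:60398095-60398124, minus strand: gcgggccggggTGAGTCAcccctgacttgg
BDKRB2, chr14:96204783-96204812, plus strand: caggaggctgaTGACATCActacccagccc
TAGLN2, chr1:159925466-159925495, minus strand: agcccttgcctTGAGTCAgtgcgccgctct
THBS2, chr6:169253937-169253966, minus strand: cagaagggggaTGATGTCAttccttcgaag
FOSL2, chr2:28392851-28392880, plus strand: tgccattgtagTGACTCAtctcgggcagag
EZR, chr6:158818273-158818302, minus strand: gggcggggcgcTGACTCAcccgggcccggg
PPP1R15A, chr19:48872352-48872381, plus strand: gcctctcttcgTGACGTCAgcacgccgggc
ITGA5, chr12:54419254-54419283, minus strand: cctccccgcgtTGAGTCAttcgcctctggg

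Counted from the gene's start in RefSeq, the first base of the match lies at -67 in JUN, -127 in ANXA2, -45 in BDKRB2, 24 in TAGLN2, -109 in THBS2, 5 in FOSL2, -56 in EZR, -58 in PPP1R15A and -6 in ITGA5. The RefSeq starts of these 9 genes lie 29 to 4897 bases downstream of the outermost starts in GENCODE 29, by 280 bases in JUN, so the window printed for JUN lies inside the GENCODE gene. Any of the 3 motifs was found in 7.7% of the 12360 promoters of tested genes and in 9.3% of all 27195 promoters in the table. The share was 9.33% of the 847 promoters of genes called lower and 7.54% of the 915 of genes called higher. Among genes called at least 2-fold lower it was 19.1% (18 of 94), and among those called at least 2-fold higher it was 7.84% (4 of 51). In the same 94 promoters TGACTCA was found in 10 (10.6%, against 3.12% of tested genes), TGACATCA in 7 (7.45%, against 1.64%) and TGACGTCA in 1 (1.06%, against 3.07%). Of the 9 promoters found for the 12 genes picked below as the largest rises, 0 held a motif. These shares describe letters in a window and were not tested.

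The target was checked first. JUN (chromosome 1, 58780788 to 58784327, minus strand, coordinates of GENCODE 29 on GRCh38) stood at 83.5, 93.9, 85.8, 97.8 and 81.7 CPM (a count divided by the TMM-scaled total of its library, on a common scale) in the 5 Control gRNA libraries and at 2.93, 2.73, 2.24, 2.98 and 3.47 CPM in the 5 JUN gRNA libraries. Every JUN gRNA library lay far below every control. The means were 88.5 ± 6.97 and 2.87 ± 0.447 CPM (SD, n = 5), so 3.24% of the control level was left, a log2 fold change of -4.96 ± 0.12 (SE, adjusted p = 1.21e-21). Guides that act at a gene's start can touch its neighbours. Within 1 Mb of the start of JUN lie 26 other genes, of which 7 passed the filter and 1 was called. That gene, MYSM1, a histone deubiquitinase, stood at 40.0 to 59.3 CPM in Control gRNA and at 56.8 to 71.3 in JUN gRNA (log2 fold change 0.46 ± 0.11, adjusted p = 0.0083), and the libraries overlapped. DAB1, an adaptor of reelin signalling (80.1 and 81.6 CPM), OMA1, a mitochondrial protease, FGGY, a carbohydrate kinase, and the non-coding AL592431.1, AL592431.2 and AC093424.1 did not pass. The non-coding LINC01135, which starts on the other strand beside JUN, had 16 counts in all Control gRNA libraries together and 4 in all JUN gRNA libraries.

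Total counts ran from 38.9 to 70.9 M per library (M, mega) in Control gRNA untreated and from 51.6 to 87.3 M in JUN gRNA untreated. The share of mitochondrial transcripts was 5.98% to 6.31% and 5.49% to 6.79%. Across the series, totals were 38.9 to 88.4 M in the 29 libraries of the guide experiment and 8.41 to 14.6 M in the 32 libraries of the knockout experiment.

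With JUN silenced, 2332 of 20759 genes (11.2%) passed an adjusted p of 0.05 and are called changed. Of these, 1133 (5.46% of genes tested) were lower, JUN among them, and 1199 (5.78%) were higher. Both counts rest partly on single libraries. Without Control gRNA library 2 they were 860 lower and 767 higher, and without JUN gRNA library 4 they were 888 and 758. Without Control gRNA library 3 they were 1139 and 1520. Most changes were small: the median log2 fold change was -0.25 among genes called lower and 0.31 among genes called higher, and 223 called genes changed at least 2-fold, 135 down and 88 up. The falls reached further than the medians show, since 40 genes were at least 5-fold lower. Of these, only JUN, TNC, PHACTR3, POLM and ANKRD33B had both a mean log2 CPM of at least 1 and no overlap between the groups. The others were lower in level or had overlapping groups, so their folds are less certain. In 829 of the genes called lower and 635 of those called higher, all libraries of one group lay beyond all libraries of the other, and such separation was seen in 1915 of all genes tested (9.22%). Protein-coding genes made up 1086 of the genes called lower and 1087 of those called higher. The median log2 fold change over all genes was 0.00036, so scaling left the genes centred near 0.

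The 12 named falls are the largest among called genes with a mean log2 CPM of at least 1 and no overlap between the groups. They included 2 glycoproteins of the extracellular matrix and both partners of a membrane complex. Genes outside this choice could fall further, as GAL did (log2 fold change -3.99, described below). TNC encodes tenascin-C, a matrix glycoprotein made in development and after injury. Its level was 63.5, 65.9, 61.1, 67.5 and 60.9 CPM in Control gRNA and 4.84, 4.15, 7.27, 5.11 and 4.13 CPM in JUN gRNA. In JUN gRNA 8.00% of the control level remained (log2 fold change -3.62 ± 0.12, adjusted p = 1.04e-17). THBS2, thrombospondin 2, another matrix glycoprotein, stood at 9.47, 11.9, 9.20, 9.59 and 9.28 CPM in Control gRNA and at 3.31, 2.69, 3.69, 2.58 and 2.68 CPM in JUN gRNA. It fell by 1.71 on the log2 scale (SE 0.15, adjusted p = 8.59e-11), to 30.3% of the control level. ANXA2 and S100A10 encode the partners of a calcium-binding complex at the membrane and both fell. ANXA2 measured 17.8, 16.9, 16.5, 17.7 and 14.8 CPM in Control gRNA and 4.08, 4.07, 5.04, 3.83 and 3.28 CPM in JUN gRNA. S100A10 measured 6.67, 6.67, 5.12, 7.55 and 6.16 CPM against 1.33, 1.97, 2.16, 1.35 and 2.34 CPM. For ANXA2 24.2% and for S100A10 28.5% of the control level was left. ANXA2 has processed pseudogenes of very similar sequence, and how the deposited counts divided such reads is not given in the sources used here.

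Genes of other roles made up the rest. PHACTR3, a regulator of protein phosphatase 1 and actin, measured 16.8, 20.4, 21.1, 20.0 and 19.5 CPM in Control gRNA and 1.83, 3.37, 1.50, 2.08 and 1.75 CPM in JUN gRNA. SHC3, a neuronal adaptor of receptor tyrosine kinases, measured 201, 200, 206, 212 and 217 CPM against 63.0, 66.6, 52.1, 60.1 and 63.1 CPM. Both groups were tight in SHC3, and its log2 fold change was -1.77 ± 0.09 (adjusted p = 2.2e-14). POLM, a DNA polymerase of end joining, measured 12.1, 8.78, 12.1, 14.3 and 14.8 CPM in Control gRNA and 1.47, 1.15, 1.33, 0.903 and 1.89 CPM in JUN gRNA, with 10.9% left. GALNT14, which starts O-linked glycosylation, measured 10.4, 8.23, 8.64, 10.2 and 7.01 CPM against 1.71, 3.05, 2.25, 1.97 and 1.75 CPM. The remaining genes of the 12 were BDKRB2, the bradykinin B2 receptor, TAGLN2, an actin-binding protein, ANKRD33B and TPBGL. They kept between 16.4% (ANKRD33B) and 29.5% (TPBGL) of the control level, with log2 fold changes from -2.61 to -1.77.

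**Figure D1:**
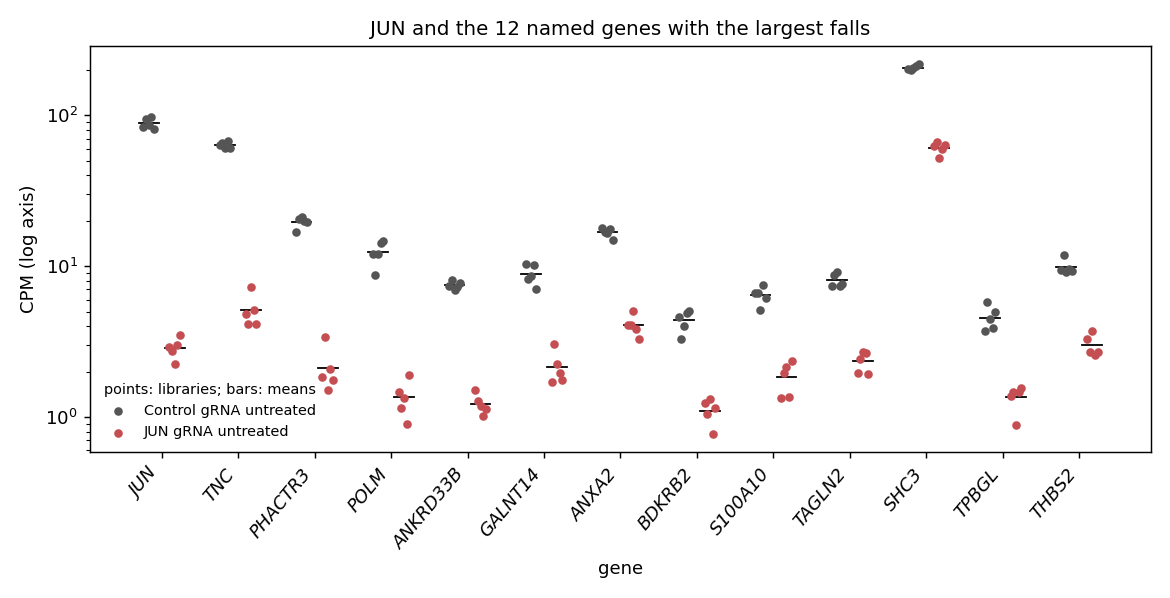
Level of JUN and 12 genes that fell (CPM, log axis) in 5 Control gRNA untreated (grey) and 5 JUN gRNA untreated (red) libraries. Their falls are the largest among called genes with a mean log2 CPM of at least 1 and no overlap between groups. Each point is a library and black bars are means. In all 13 genes every red point lies below every grey point, which the choice of genes required except for JUN, and JUN drops from 88.5 to 2.87 CPM.

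The 12 largest rises, chosen under the same limits on level and overlap, included transcription factors of development, receptors and non-coding RNAs. TBX5, a T-box factor of heart and limb development, stood at 1.37, 0.688, 2.87, 1.60 and 2.23 CPM in Control gRNA and at 11.1, 11.0, 11.0, 8.98 and 9.45 CPM in JUN gRNA. Its level rose to 588% of control (log2 fold change 2.53 ± 0.21, adjusted p = 1.98e-12). TBX5-AS1, on the other strand and overlapping the start of TBX5, rose by 2.18 ± 0.41 on the log2 scale. The strand setting of the counting is not given in the sources used here, so reads of this pair cannot be told apart. ZIC1, a zinc finger factor of neural development, measured 1.20, 3.07, 1.10, 1.51 and 0.924 CPM against 4.97, 8.07, 6.61, 6.20 and 6.99 CPM. The second control lay above the other controls.

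EGR1, an immediate early transcription factor induced by activity and growth factors, measured 16.3, 11.4, 12.9, 13.3 and 15.3 CPM in Control gRNA and 38.8, 40.4, 32.0, 39.6 and 46.7 CPM in JUN gRNA. It rose to 285% of control (log2 fold change 1.50 ± 0.10, adjusted p = 6.69e-11). The orphan receptor GPR50 measured 27.8, 33.6, 25.6, 29.2 and 35.1 CPM against 91.0, 107, 91.4, 98.9 and 107 CPM. KC877982.1, a non-coding gene just after GPR50 on the same strand of chromosome X, rose with it (log2 fold changes 1.71 ± 0.10 and 1.57 ± 0.13), and reads that run past the end of GPR50 cannot be told apart from it. LINC01833, an intergenic non-coding RNA, measured 27.7, 28.9, 24.9, 28.8 and 30.1 CPM in Control gRNA and 72.0, 70.7, 72.5, 71.5 and 73.8 CPM in JUN gRNA, with the JUN gRNA libraries close together. D21S2088E, also non-coding, measured 12.8, 11.4, 11.7, 12.0 and 12.5 CPM against 47.0, 49.0, 43.4, 51.7 and 48.1 CPM, which is 396% of control. IGFBP5, a secreted binding protein of insulin-like growth factors, rose from 1.81 ± 0.391 to 6.05 ± 0.794 CPM (SD, n = 5). CRTAC1, a secreted cartilage protein, rose from 8.08 ± 0.515 to 25.1 ± 3.68 CPM, and APLNR, the receptor of apelin, from 2.79 ± 0.311 to 8.11 ± 0.994 CPM. OTOGL, an otogelin-like protein, stood at 240% of control.

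**Figure D2:**
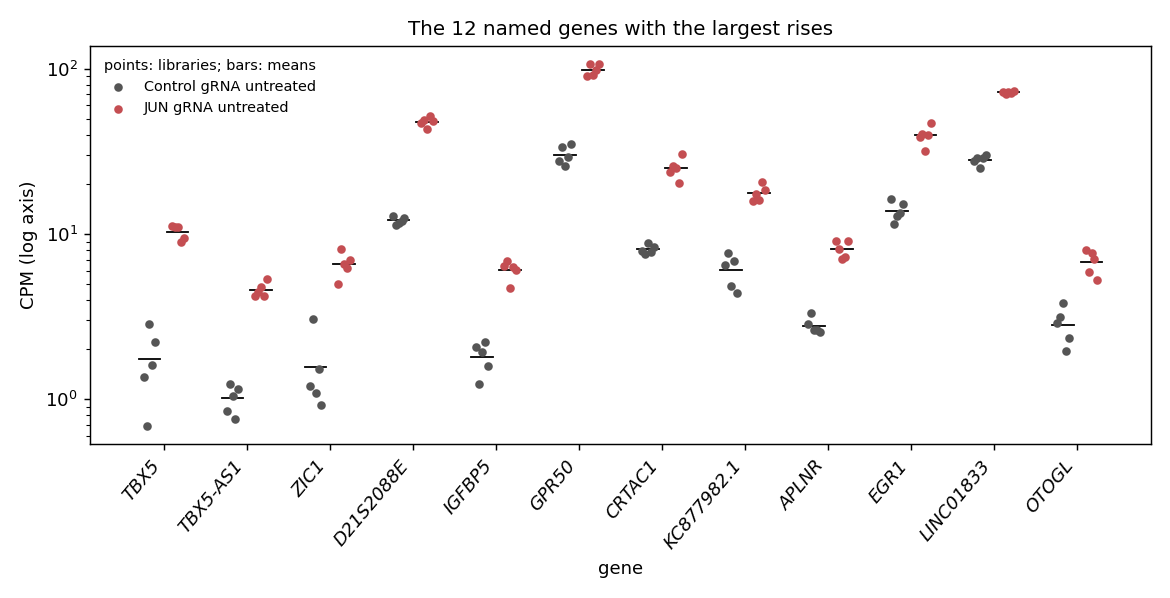
Level of 12 genes that rose (CPM, log axis) in 5 Control gRNA untreated (grey) and 5 JUN gRNA untreated (red) libraries. Their rises are the largest among called genes with a mean log2 CPM of at least 1 and no overlap between groups. Each point is a library and black bars are means. All red points of a gene lie above all its grey points, as the choice of genes required, with TBX5 at 1.75 and 10.3 CPM on average.

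The genes were then read by role, in 16 lists of genes known for a function, against the 11.2% of all tested genes that were called. These lists hold many well-expressed genes, which pass a test more easily, so their shares are given as counts. Among the AP-1 and ATF factors, the possible dimer partners of JUN, 3 of 18 tested were lower and 5 were higher, with a median log2 fold change of -0.04. Besides JUN itself the fallers were FOSL2, a FOS family member, and CREB5, a close relative of ATF2. FOSL2 measured 2.10, 1.85, 1.75, 1.51 and 1.27 CPM in Control gRNA and 1.19, 0.473, 0.798, 0.713 and 0.318 CPM in JUN gRNA, with no overlap (log2 fold change -1.25 ± 0.24, adjusted p = 0.00025). FOS measured 2.26, 2.43, 1.52, 1.88 and 2.83 CPM against 3.89, 3.14, 3.19, 4.32 and 4.57 CPM and rose by 0.81 ± 0.18 on the log2 scale (adjusted p = 0.0015). MAFF, a small MAF protein, rose from 2.73 ± 0.358 to 5.57 ± 0.798 CPM. JUND, the JUN relative that is present at rest, rose by 0.22 ± 0.06 on the log2 scale, CREB1 by 0.23 ± 0.06 and NFE2L2, the antioxidant regulator NRF2, by 0.19 ± 0.06. JUND lost its call without Control gRNA library 5 (adjusted p = 0.056) and CREB1 without Control gRNA library 2 or JUN gRNA library 4 (up to 0.072). NFE2L2 lost it in 7 of 17 alternatives (up to 0.17), 5 of which left out 1 library: Control gRNA library 1, 2 or 5 or JUN gRNA library 4 or 5. The other 10 tested members were not called: JUNB stood at 8.09 and 7.84 CPM, ATF3 at 22.2 and 20.6, ATF4 at 497 and 471 and ATF2 at 129 and 153, with ATF7, BATF3, JDP2, MAFG, MAFK and NFE2L1 also inside the spread of the test. FOSB, FOSL1 and BATF were too low to be tested.

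In the JNK pathway, which activates JUN, 5 of 22 tested genes were lower and 5 higher (median log2 fold change 0.03). The members with the largest changes were MAP3K11 and 3 phosphatases of MAP kinases. DUSP16, which acts on JNK, fell from 61.6 ± 2.94 to 37.3 ± 1.64 CPM, DUSP6, which acts on ERK, rose from 77.4 ± 4.39 to 113 ± 5.32 CPM, and DUSP10, which acts on JNK and p38, rose from 51.2 ± 1.90 to 69.1 ± 5.11 CPM (SD, n = 5). MAP3K11, a mixed lineage kinase upstream of JNK, fell by 0.59 on the log2 scale (SE 0.09). MAPK10, the neuronal JNK3, fell by 0.20 and the scaffold MAPK8IP1 by 0.33. MAP3K12 (DLK), MAP3K13 (LZK), MAPK8 and MAPK9 were among the 12 members not called.

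Known AP-1 targets from other cell types moved in 1 direction where they passed: 5 of 17 tested were lower and 0 higher. The median log2 fold change of -0.51 is over all 17, including the 12 that were not called. VIM, vimentin, an intermediate filament, measured 17.8, 19.0, 17.7, 19.2 and 20.5 CPM in Control gRNA and 10.1, 8.82, 10.5, 9.46 and 9.75 CPM in JUN gRNA, with 51.7% left and no overlap (adjusted p = 7.39e-14). TIMP1, an inhibitor of matrix proteases, fell by 0.72, TGFB1, a growth factor, by 0.42, EZR, a linker of membrane and actin, by 0.39 and HMGA1, a chromatin protein, by 0.16 on the log2 scale. Genes linked to axon injury and regeneration showed 7 lower and 0 higher of 21 tested (median -0.11). GAL, the neuropeptide galanin, measured 2.78, 2.54, 1.97, 2.42 and 1.85 CPM in Control gRNA and 0.172, 0.0757, 0.107, 0.0874 and 0.298 CPM in JUN gRNA. That fall, by 3.99 on the log2 scale (SE 0.29, adjusted p = 6.27e-15), rests on 577 counts in the controls and 45 in the JUN gRNA libraries. SOX11, a transcription factor of immature and regenerating neurons, measured 76.0, 62.2, 67.4, 63.8 and 65.6 CPM against 41.1, 41.4, 39.9, 42.3 and 43.0 CPM, with 62.0% left. GADD45A, a stress and demethylation factor, fell by 0.43, ITGA7, an integrin, by 0.24, the actin regulator CAP2 by 0.22, the growth cone protein GAP43 by 0.13 and the tubulin-binding STMN2 by 0.12. The ITGA7 call was lost without Control gRNA library 2 or JUN gRNA library 4 (adjusted p up to 0.091).

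Death regulators of the BCL2 family included 2 lower and 1 higher of 15 tested (median -0.07), and the fallers were both BH3-only proteins, which promote death. BCL2L11 (BIM) measured 18.8, 19.1, 16.0, 16.9 and 18.1 CPM in Control gRNA and 9.81, 8.35, 8.42, 9.54 and 8.80 CPM in JUN gRNA. HRK (harakiri) measured 64.2, 66.4, 55.6, 62.6 and 65.1 CPM against 32.9, 37.3, 36.3, 36.3 and 33.5 CPM. The groups were apart in both genes, with 50.5% and 56.1% of the control level left (adjusted p = 1.78e-11 and 7.18e-17). MCL1, which protects cells, rose by 0.11 on the log2 scale, a call that was lost in 10 of 17 alternatives, 8 of which left out 1 library (any Control gRNA library, or JUN gRNA library 1, 3 or 4), with an adjusted p of up to 0.14.

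Of 17 immediate early and activity genes tested, 8 were higher and 1 was lower (median 0.24). Besides EGR1 they included EGR2, which had 13 counts in the Control gRNA libraries together, 12 of them in 1 library, and 95 in the JUN gRNA libraries, a log2 fold change of 2.53 ± 0.61 (adjusted p = 0.0053). Without that library, Control gRNA library 3, the controls hold 1 count, and the fitted log2 fold change, which then depends on the prior count, was 5.32 (adjusted p = 6.9e-06). NR4A3 rose from 40.7 to 55.6 CPM, HOMER1, a postsynaptic scaffold, from 41.4 to 51.1, IER2 from 31.9 to 37.6 and IER5 from 12.6 to 15.8. NR4A1 rose by 0.72 ± 0.21 and the secreted peptide precursor VGF by 0.30 ± 0.09 on the log2 scale. The NR4A1 call was lost in 5 of 17 alternatives, among them without Control gRNA library 1, 3 or 4 or JUN gRNA library 3 (adjusted p up to 0.11). The VGF call was lost in 7 of 17, among them without Control gRNA library 1, 3 or 5 or JUN gRNA library 1, 2 or 5 (up to 0.1). IER3 was the member called lower (2.07 ± 1.10 to 1.03 ± 0.503 CPM), with overlapping libraries, and its call was lost without Control gRNA library 2 or JUN gRNA library 3, 4 or 5 (adjusted p up to 0.22).

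Members of 2 stress programmes were called in 20% and 16.7% of those tested, against 11.2% of all genes. Of 15 genes of the integrated stress response, in which ATF4 raises amino acid and repair genes, 1 was lower and 2 were higher (median 0.06). DDIT3 (CHOP) rose from 19.5 ± 0.425 to 23.5 ± 1.57 CPM, PPP1R15A, which restarts translation, fell from 53.7 ± 1.47 to 46.4 ± 3.36 CPM, and ATF5 rose by 0.19 on the log2 scale, a call lost in 8 of 17 alternatives, among them RLE factors and leaving out Control gRNA library 3, 4 or 5 or JUN gRNA library 1, 2 or 3 (adjusted p up to 0.14). Among 12 targets of p53, 0 were lower and 2 higher (median 0.21). TNFRSF10B, a death receptor for TRAIL, measured 15.6, 15.6, 14.3, 16.8 and 14.6 CPM in Control gRNA and 30.9, 32.2, 27.9, 30.8 and 30.4 CPM in JUN gRNA, which is 198% of control (adjusted p = 1.09e-16). RRM2B, a subunit of ribonucleotide reductase, rose by 0.24 on the log2 scale and lost its call without Control gRNA library 1 or 2 or JUN gRNA library 2 or 4 (adjusted p up to 0.13).

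**Figure D3:**
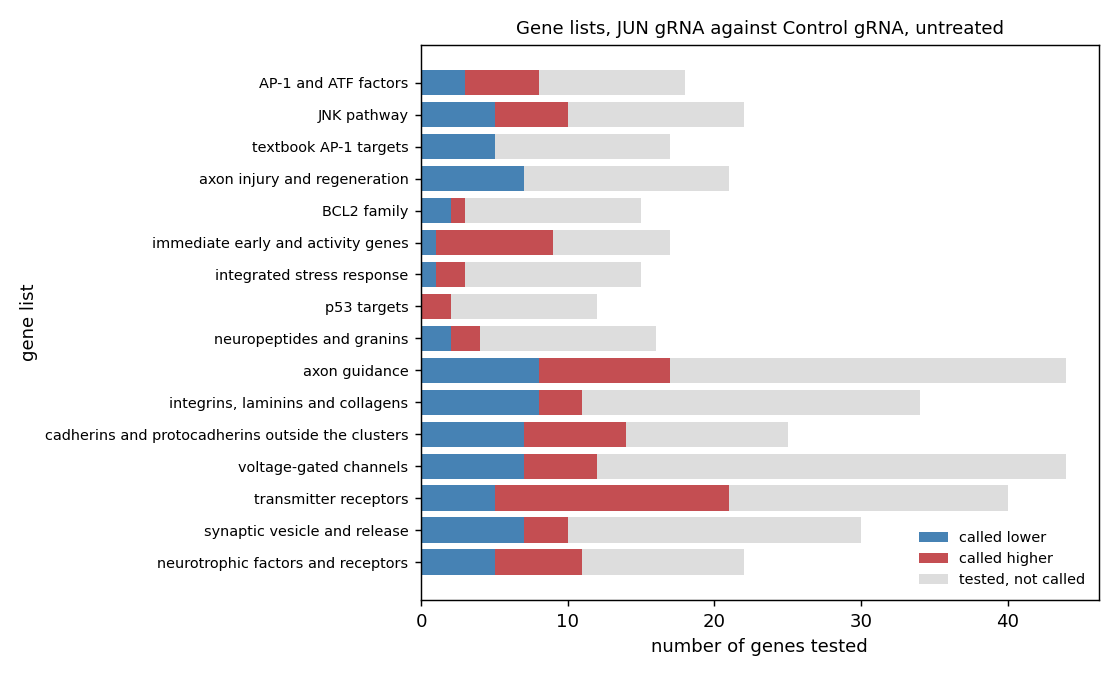
Number of tested genes in each of 16 gene lists (horizontal axis) that were called lower (blue), called higher (red) or not called (grey) in JUN gRNA untreated against Control gRNA untreated. The AP-1 target and axon injury lists hold 5 and 7 genes called lower and 0 called higher, and the transmitter receptors hold 16 called higher and 5 called lower.

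Genes for the cell's contact with its surroundings moved in both directions. Among integrins, laminins and collagens 8 of 34 tested were lower and 3 higher (median -0.15). TNC led them. COL1A1, a fibrillar collagen, had 250 counts in Control gRNA and 44 in JUN gRNA (log2 fold change -2.87 ± 0.67), ITGB5 fell by 1.51 (SE 0.37), the laminin chains LAMA4 by 1.16 and LAMB2 by 0.57, and ITGA5, at 132 and 40 counts, by 2.07 (SE 0.71, adjusted p = 0.04995). The ITGA5 call was lost in 10 of 15 alternatives, among them without each library other than Control gRNA library 3 and JUN gRNA library 2, with an adjusted p of up to 0.16, and without JUN gRNA library 2 the log2 fold change was -2.75. ITGAV, COL5A2 and COL6A2 rose by 0.24 to 0.45 on the log2 scale. Cadherins and protocadherins split evenly, with 7 lower and 7 higher of 25 tested (median -0.12): CDH6 fell from 13.7 ± 2.56 to 7.63 ± 0.538 CPM and CDH9 from 14.4 to 9.31, while PCDH8 rose from 19.5 ± 1.42 to 34.0 ± 2.65, PCDH19 from 32.0 ± 3.22 to 51.7 ± 3.76 and CDH10 from 44.8 to 72.0 CPM. PCDH15 rose by 1.05 on the log2 scale, a call lost in 7 of 17 alternatives, among them without Control gRNA library 1, 2 or 5 or JUN gRNA library 2, 4 or 5 (adjusted p up to 0.097).

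Axon guidance genes also divided, with 8 lower and 9 higher of 44 tested (median -0.02). Among the receptors of class 3 semaphorins, PLXNA4 and NRP2 fell. PLXNA4 measured 31.5, 24.3, 24.6, 29.1 and 29.3 CPM in Control gRNA and 16.5, 15.7, 15.8, 15.7 and 17.0 CPM in JUN gRNA, and NRP2 measured 26.4, 26.1, 27.2, 27.1 and 29.5 CPM against 15.1, 15.4, 15.7, 16.1 and 19.0 CPM. Neither gene had overlapping groups, and 58.1% and 59.7% of the control level remained. DCC, the netrin receptor, measured 269, 229, 268, 246 and 254 CPM against 393, 406, 434, 397 and 400 CPM, which is 160% of control. SEMA3A, a repulsive ligand for neuropilin receptors, rose from 16.2 ± 2.55 to 23.3 ± 2.13 CPM and SEMA3C by 0.48 on the log2 scale. The other fallers were SEMA3E, EFNB2, EPHB2, EPHA4, SLIT2 and SEMA4D, by 0.13 to 0.45 on the log2 scale.

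Receptors for transmitters were called in 21 of 40 tested, 16 higher and 5 lower (median 0.21). The rises included glutamate receptor subunits of the AMPA class, GRIA1 (4.15 ± 0.562 to 7.46 ± 1.20 CPM), GRIA2 (34.7 to 59.2) and GRIA3 (60.0 to 73.5). GRIN2B, an NMDA receptor subunit, measured 28.9, 12.7, 17.6, 15.9 and 17.5 CPM in Control gRNA and 29.2, 42.9, 29.4, 34.4 and 26.1 CPM in JUN gRNA, so the first control lay within the JUN gRNA range. CHRNA3, a nicotinic receptor subunit, measured 280, 275, 287, 288 and 303 CPM against 465, 468, 466, 467 and 472 CPM, with CHRNA5 and CHRNB4, its neighbours in 1 gene cluster, rising by 0.47 each on the log2 scale. The glutamate receptors GRM8, GRIK1 and GRIK5 and the nicotinic subunit CHRNA4 were lower, with log2 fold changes of -0.49, -0.43, -0.21 and -0.27. GABRA2, a GABA receptor subunit, fell from 2.04 ± 0.939 to 1.01 ± 0.328 CPM with overlapping groups. Its call was lost without Control gRNA library 2 (adjusted p = 0.052). Voltage-gated channels showed 7 lower and 5 higher of 44 tested (median 0.04): the sodium channel SCN2A rose from 63.0 to 88.0 CPM, SCN7A from 4.45 ± 0.742 to 7.71 ± 1.96 and the calcium channel CACNA1D from 9.32 to 13.7, while SCN4B, a sodium channel beta subunit, fell from 2.03 ± 0.346 to 0.889 ± 0.319. KCND2, HCN2, SCN3B and KCNA2 were also lower, with log2 fold changes from -0.38 to -0.15. The potassium channel KCNA4 rose by 1.21 on the log2 scale. Its call was lost without Control gRNA library 2 or 4 or JUN gRNA library 4 (adjusted p up to 0.085).

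Genes of synaptic vesicles were lower in 7 and higher in 3 of 30 tested (median -0.07). SYT2, a fast calcium sensor of release, fell from 315 ± 11.3 to 227 ± 16.5 CPM, whereas SYT1, the main sensor of forebrain synapses, rose by 0.35 ± 0.04 and SYN3, a synapsin, by 0.72 ± 0.11 on the log2 scale. PCLO, an active zone protein, rose by 0.42 and lost its call in 8 of 17 alternatives, 7 of which left out 1 library (Control gRNA library 1, 2, 4 or 5 or JUN gRNA library 2, 4 or 5), with an adjusted p of up to 0.11. Neuropeptides and granins were called in 4 of 16 tested, 2 each way (median -0.05). Besides GAL and VGF, somatostatin (SST) measured 1.54, 1.19, 1.17, 1.08 and 0.942 CPM in Control gRNA and 2.32, 1.69, 1.92, 1.65 and 2.82 CPM in JUN gRNA, and SCG5 fell by 0.20 on the log2 scale, with its call lost without Control gRNA library 4 or 5 or JUN gRNA library 3 or 5 (adjusted p up to 0.087). Neurotrophic factors and receptors were lower in 5 and higher in 6 of 22 tested (median 0.16). NTRK2, the receptor of BDNF, rose from 92.1 ± 3.56 to 132 ± 5.26 CPM and NTF3, neurotrophin 3, from 3.53 ± 0.876 to 6.07 ± 1.04, while NGFR, the shared neurotrophin receptor, fell from 20.9 ± 1.40 to 15.9 ± 2.01. GFRA2 rose by 0.40 on the log2 scale and lost its call without Control gRNA library 5 (adjusted p = 0.068).

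Marker genes of cell types were set beside these results, because in bulk RNA a change in the number of cells of a type and a change in RNA per cell cannot be told apart. The cells carry neuronal RNA in every library: the summed level of 10 neuron markers was 14500 to 14900 CPM in Control gRNA and 14000 to 14700 in JUN gRNA, with 2 called lower (NEFL and STMN2, by 0.15 and 0.12 on the log2 scale). The labels call the cells cortical, yet TBR1, a factor of cortical glutamatergic neurons, stood at 0.32 CPM in both groups, while POU4F1, a sensory neuron factor, stood at 481 and 414 CPM and fell by 0.22. Markers of peripheral sensory neurons summed to 514 to 534 CPM in Control gRNA and 437 to 470 in JUN gRNA, with 2 of 7 called lower and 1 higher. Neural progenitor markers summed to 1310 to 1400 against 957 to 1080 CPM, almost all of it the intermediate filament NES, which fell by 0.38 ± 0.03 on the log2 scale, and SOX2 fell by 0.28 while PAX6, HES5 and SOX1 were not called. Pluripotency markers summed to 9.58 to 13.5 against 17.3 to 19.1 CPM, with LIN28A called (log2 fold change 1.15 ± 0.14), 2 of 6 at 0 in all 10 libraries and POU5F1 at 0.396 and 0.353 CPM. Markers of dividing cells summed to 11.0 to 15.6 against 8.40 to 10.1 CPM with 0 of 6 called, and those of astrocytes to 1.90 to 2.57 against 2.59 to 3.48 CPM with 0 of 4 called. Oligodendrocyte lineage markers summed to 12.0 to 17.5 against 8.67 to 12.9 CPM, with 1 of 4 called lower and OLIG2 and PDGFRA not called. Fibroblast markers summed to 2.03 to 2.43 against 0.83 to 1.17 CPM, with COL1A1 lower. GABAergic neuron markers summed to at most 1.97 CPM in any library, with 0 of 5 called, and glutamatergic markers to 618 to 666 against 615 to 636 CPM, with 2 of 7 lower and 2 higher. The part of these differences in the gene results was not tested.

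The 10 libraries treated with vincristine, 5 of each guide, gave a second reading of JUN silencing that shares no library with the first. There 5548 genes (26.7%) were called, 2543 lower (12.3%) and 3005 higher (14.5%). Of the 1132 genes other than JUN that were lower at rest, 702 (62.0%) were lower again, which is 27.6% of the genes lower with vincristine, and 63 (5.57%) were higher. Of the 1199 genes higher at rest, 578 (48.2%) were higher again, 19.2% of the genes higher with vincristine, and 63 (5.25%) were lower. The sign was kept in 80.7% and 76.3%. The medians were -0.27 with vincristine against -0.25 at rest for the first set, and 0.19 against 0.31 for the second. JUN itself stood at 237 ± 12.9 CPM in Control gRNA with vincristine and at 6.43 ± 1.31 in JUN gRNA.

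A test of the difference between the guide's effects in the 2 treatments called 3273 genes (15.8%). Some genes showed a larger effect with vincristine than at rest. VIM stood at 131 and 14.5 CPM with vincristine against 18.8 and 9.74 at rest (Control gRNA and JUN gRNA), a difference in log2 fold change of -2.22 (adjusted p = 1.92e-21). ATF3, an injury-induced partner of JUN that did not differ detectably at rest, stood at 248 and 54.9 CPM with vincristine (difference -2.07). TNC, GADD45A, BCL2L11 and HRK showed further differences of -1.17, -1.97, -1.07 and -0.94. In 5 named genes that were higher under JUN gRNA at rest, TNFRSF10B, DDIT3, ATF5, RRM2B and VGF, the direction turned and the value with vincristine was called lower. TNFRSF10B was higher under JUN gRNA at rest and stood at 44.2 and 37.1 CPM with vincristine, where it was lower (difference -1.24). EGR1, POLM, PHACTR3, SOX11 and GAL were called in both treatments in 1 direction, and their differences did not pass: PHACTR3 changed by -3.23 in each treatment, and POLM by -3.21 at rest and -3.13 with vincristine.

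**Figure D4:**
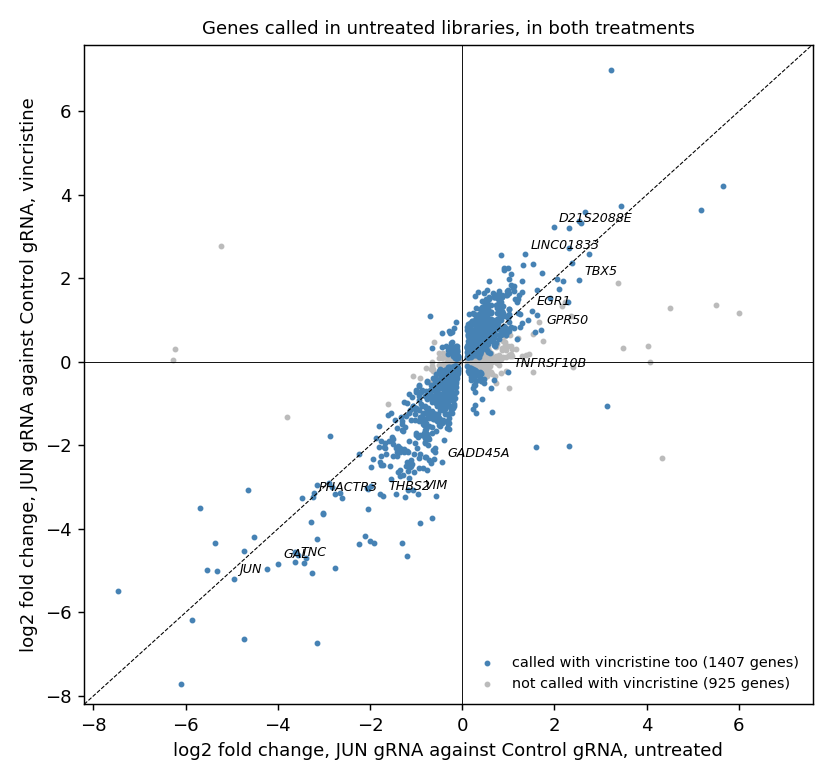
Log2 fold change of JUN gRNA against Control gRNA in untreated (horizontal) and vincristine (vertical) libraries for the 2332 genes called untreated, 1407 of them called with vincristine too (blue) and 925 not (grey); the dashed line marks equal effects. VIM, GADD45A and THBS2 lie below the line, PHACTR3 near it, and TNFRSF10B on the other side of 0 from its untreated value.

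ATF2 is a partner of JUN and the other silenced factor of the experiment. Neurons with ATF2 gRNA untreated and with JUN gRNA untreated share the Control gRNA libraries, so their changes are given side by side and the test used is the direct one between the guides. Against Control gRNA the ATF2 guide changed 8281 genes (39.9%), and JUN gRNA and ATF2 gRNA differed in 7215 (34.8%). JUN was lower with ATF2 gRNA too, at 21.0 ± 2.00 CPM, which lies between 88.5 in Control gRNA and 2.87 in JUN gRNA. ATF2 stood at 0.526 ± 0.294 CPM with its own guide and at 153 ± 8.37 with JUN gRNA, against 129 ± 18.6 in Control gRNA (adjusted p = 0.22 for JUN gRNA against Control gRNA).

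For several of the largest falls the 2 guides gave different levels. TNC stood at 5.10 CPM with JUN gRNA and at 85.3 ± 7.58 with ATF2 gRNA against 63.8 in Control gRNA (log2 difference between guides -4.04 ± 0.12, adjusted p = 7.64e-20). POLM stood at 1.35 and 13.4 against 12.4 CPM, ANXA2 at 4.06 and 20.3 against 16.7, VIM at 9.74 and 27.2 against 18.8 and BCL2L11 at 8.98 and 19.1 against 17.8. All these differences between guides passed. Other falls had similar levels with either guide: GALNT14 stood at 2.14 and 2.09 CPM against 8.89 (difference 0.04 ± 0.23, adjusted p = 0.93), and S100A10 at 1.83 and 2.49 against 6.43 (difference -0.45 ± 0.24, adjusted p = 0.16), values that do not show that the guides acted alike. SHC3 stood at 61.0 and 46.6 against 207 CPM, and THBS2 at 2.99 and 2.01 against 9.88, with ATF2 gRNA the lower in both (adjusted p = 0.00087 and 0.0049). Several rises were far smaller with JUN gRNA than with ATF2 gRNA. EGR1 stood at 39.5 CPM with JUN gRNA and at 536 ± 16.4 with ATF2 gRNA, GPR50 at 99.0 and 794 ± 15.4, D21S2088E at 47.8 and 257 ± 12.0, IGFBP5 at 6.05 and 44.3 ± 3.77 and SST at 2.08 and 165 ± 14.1, and each difference between guides passed. TBX5 and MAFF went the other way, at 10.3 and 5.57 CPM with JUN gRNA and at 0.975 ± 0.187 and 0.505 ± 0.200 with ATF2 gRNA.

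The knockout experiment, which shares no library with the guides, showed how the same genes stood in WT neurons given vincristine and in neurons without DLK and LZK. Vincristine changed 5498 of 18235 genes in WT (30.2%), 2643 lower (14.5%) and 2855 higher (15.7%). JUN rose by 1.86 on the log2 scale. Of the 1095 genes lower under JUN gRNA at rest that were tested there, 339 (31.0%) were higher with vincristine, 12.3% of the genes it raised, and 161 (14.7%) were lower, 6.19% of the genes it lowered. Of the 1166 genes higher under JUN gRNA, 310 (26.6%) were lower with vincristine, 11.9% of those it lowered, and 228 (19.6%) were higher, 8.28% of those it raised. Called genes are mostly well expressed in both experiments, and these shares were not tested against each other.

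In the double KO 8334 genes (45.7%) differed from WT at rest, 4023 lower (22.1%) and 4311 higher (23.6%). JUN was lower by 1.82 on the log2 scale. Other differences between the knockout and WT cells cannot be told apart here from loss of the kinases. Of the 1095 genes lower under JUN gRNA, 507 (46.3%) were lower in the double KO, 13.1% of the genes lower there, and 210 (19.2%) were higher. Of the 1166 genes higher under JUN gRNA, 433 (37.1%) were higher in the double KO, 10.7% of the genes higher there, and 293 (25.1%) were lower. This comparison and that of vincristine in WT share the WT untreated libraries, so their values are given side by side.

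Named examples show that the 3 readings need not go together. FAT2, a large cadherin, fell from 6.57 ± 1.03 to 2.07 ± 0.331 CPM under JUN gRNA, rose by 1.77 with vincristine in WT and fell by 3.46 in the double KO, all on the log2 scale. TAGLN2, SHC3 and THBS2 followed the same order, with values in the double KO of -2.11, -1.46 and -2.13. ANXA2 and TPBGL rose with vincristine by 0.85 and 1.30 and rose in the double KO by 1.05 and 0.59. TNC rose with vincristine by 1.31 and did not differ detectably in the double KO (log2 fold change 0.21, adjusted p = 0.25). Among the genes that rose under JUN gRNA and fell with vincristine in WT, IGFBP5, CRTAC1, PREX2, a guanine nucleotide exchange factor, LIN28A, an RNA-binding protein of early development, and SLITRK3, a synaptic adhesion protein, were higher in the double KO, by 1.39 to 5.29 on the log2 scale. TBX5 was higher there by 1.08, whereas LINC01833 was lower by 1.59 and FOXO1, a forkhead factor restrained by insulin signalling, by 1.05.

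**Figure D5:**
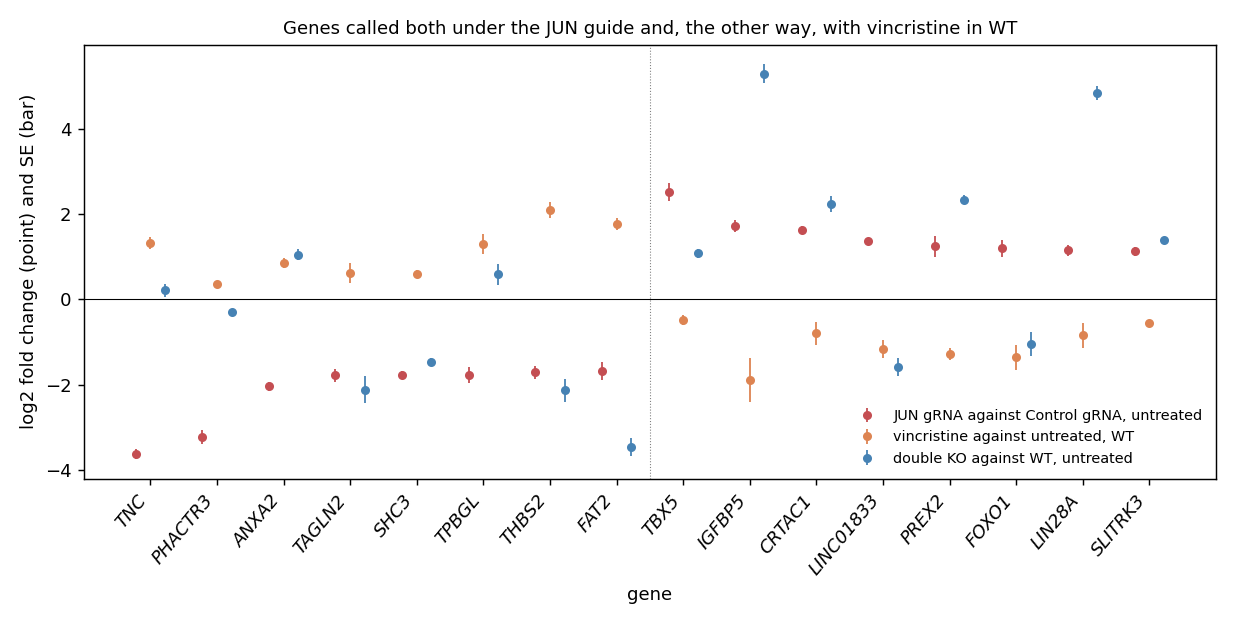
Log2 fold change with SE bars for the 8 largest falls (left) and 8 largest rises (right) under JUN gRNA. They are the largest among called genes with a mean log2 CPM of at least 1 that vincristine changed in the opposite direction in WT. Shown are JUN gRNA against Control gRNA untreated (red), vincristine against untreated in WT (orange) and double KO against WT untreated (blue). Red and orange lie on opposite sides of 0 by choice, and blue lies on either side, from -3.46 in FAT2 to 5.29 in IGFBP5.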

How the data were processed

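Libraries of poly(A)-selected RNA were made with a stranded kit, per the labels' protocols. The deposited files, one for either experiment, hold raw counts per gene. The submitters' processing notes name cutadapt 3.4, STAR, featureCounts, Subread 2.0.1 and GRCh38, and the file headers show trimmed reads with marked duplicates; how strand and duplicates were treated in counting is not given in the sources used here. Of 58440 gene identifiers, 58320 were matched to a symbol, 56992 with the same version in GENCODE 29. Groups follow the sample titles, and 0 count columns were left unused.

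Each experiment was fitted whole with edgeR 4.0.16 in R 4.3.3 (filterByExpr by group, TMM factors, quasi-likelihood test, robust, 1 mean per group), which tested 20759 and 18235 genes. The quasi-likelihood p-values were 2-sided and given the Benjamini-Hochberg adjustment within each of 7 comparisons, with 0.05 as the threshold; each SE was taken as the absolute log2 fold change over the root of F. Of the 4493 genes with an unadjusted p under 0.05 in the main comparison, 2332 passed. The difference between treatments is an interaction contrast. Levels are CPM with TMM factors, and mean log2 CPM used a prior count of 2.

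Named genes are JUN, genes within 1 Mb of it and all tested AP-1 and ATF factors. Each other list gave up to 4 called members with the largest changes. The 12 largest falls and 12 largest rises came from called genes with a mean log2 CPM of at least 1 and non-overlapping groups of 5. The 8 largest changes each way came from called genes at that mean log2 CPM that vincristine changed oppositely in WT. A few further list and marker genes (MAPK10, MAPK8IP1, HMGA1, CAP2, GAP43, STMN2, NR4A3, HOMER1, IER2, IER5, LAMA4, LAMB2, CDH9, CDH10, CHRNA3, CHRNA5, CHRNB4, GRIA2, GRIA3, SCN2A and CACNA1D among them) were named after their values were seen, and some genes are not reported here. GRM8, GRIK1, GRIK5, CHRNA4, KCND2, HCN2, SCN3B and KCNA2 were also named after their values were seen. The comparison, lists and markers were chosen with earlier results of these data known. Alternatives were RLE factors, DESeq2 1.42.0, no filter, a mean of at least 1 CPM, the replicate number as a block, only the groups compared, limma 3.58.1 voom with quality weights, and each library left out in turn. In data simulated with the depths and spread of the guide experiment (20241 genes), 200 genes with a mean of at least 1 CPM were changed 2-fold. Of these 92% were called, with 4 false calls, and where no gene was changed 0 of 20294 were called. Smaller changes, which most called genes showed, were not simulated. Counts are high enough that the number and spread of libraries limit the precision of most values; for genes under 100 counts per group counting error adds to it. Also used were the package data.table (version 1.17.8), Python 3.11.15 and, for figures, matplotlib 3.10.9.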

Additional observations from a re-analysis of the deposited data

Results flagged for a closer look

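The 5 libraries of each group were checked for values far from the others, over 105 named genes and 210 groups, in which chance alone marks about 1 in 20. In 13 groups the highest or lowest library stood far from the rest. In Control gRNA untreated these were the highest libraries of THBS2 (11.9 CPM, next 9.59), ZIC1 (3.07, next 1.51), BATF3 (0.222, next 0.0181), EGR2 (0.178, next 0.0181), IER3 (4 CPM, next 1.85), NR4A1 (3.84, next 1.52), MYSM1 (59.3, next 45.2) and FGGY (7.98, next 5.09). Library 2 was the high one for THBS2, ZIC1, IER3 and NR4A1, library 3 for BATF3, EGR2 and MYSM1, and library 1 for FGGY. In JUN gRNA untreated they were the lowest libraries of TPBGL (0.882 CPM, next 1.38), ATF3 (18 CPM, next 20.7) and DUSP10 (60.2, next 70.3) and the highest of NRP2 (19 CPM, next 16.1) and ITGA5 (0.341, next 0.116).

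In 47 named genes the effect of the JUN guide differed between vincristine and untreated libraries, by the interaction test of edgeR adjusted over all genes. The values below are the log2 fold change with vincristine minus that at rest. Among the AP-1 and ATF factors and the JNK pathway they were 0.6 for JUNB, -2 for FOSL2, -2.07 for ATF3, -1.24 for CREB5, -0.622 for JDP2, -0.865 for MAFF, -0.33 for MAFG, -0.263 for NFE2L1, -0.619 for DUSP16 and 0.45 for DUSP6. For the genes with the largest falls they were -1.17 for TNC, -1.48 for GALNT14, -0.999 for ANXA2, -0.997 for BDKRB2, -1.38 for TAGLN2 and -1.49 for THBS2. Of the genes with the largest rises, D21S2088E differed by 1.25, GPR50 by -0.936, KC877982.1 by -0.86, APLNR by 0.813 and LINC01833 by 1.21, and SLITRK3 by 0.698. Stress, injury and death genes gave -2.22 for VIM, -1.97 for GADD45A, -0.425 for ITGA7, -1.07 for BCL2L11, -0.942 for HRK, 0.244 for MCL1, -1.3 for DDIT3, -1.01 for PPP1R15A, -0.608 for ATF5, -1.24 for TNFRSF10B and -0.475 for RRM2B. Guidance, adhesion and neuropeptide genes gave -0.686 for PLXNA4, -1.08 for NRP2, -0.428 for SEMA3A, 0.896 for PCDH8, 0.87 for PCDH19, -0.881 for SST and -0.557 for VGF. Channels, receptors and synaptic genes gave -1.22 for SCN4B, 0.722 for SCN7A, 0.758 for GRIN2B, 0.279 for SYT2 and 0.765 for NTF3, and the neighbours of JUN gave -0.565 for MYSM1 and 0.341 for DAB1. The smallest adjusted p was 1.92e-21 (VIM) and the largest 0.0414 (GRIN2B).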

How the results depend on the processing

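The alternatives kept the direction of every shared call of the main comparison: 0 genes called in both changed sign under any of the 17. The count of 2332 genes ran from 2031 (no filter) to 2932 (limma voom with quality weights), with 2791 by DESeq2, and between 1627 (without the second Control gRNA library) and 2659 (without the third) when 1 library was left out. Between 67.6% and 98.4% of the 2332 genes were called again. No sign of pairing by replicate number was seen between Control gRNA and JUN gRNA untreated. Over 12621 genes the deviations of same-numbered libraries correlated between -0.23 and 0.0014, and 0 of 5 libraries matched their own number best. A check of this kind cannot show that the cultures were unpaired. With the replicate block 2222 genes were called. Of 105 named genes, 89 were called, 72 of them under each alternative run, and 17 lost the call in at least 1. Where a named gene was called in the main fit or in the alternative, 0 changed direction. JUNB, MAFK and AL592431.1, which were not called, changed sign in at least 1 alternative. ATF2 gained a call with limma voom and when only the compared groups were fitted, and FGGY without the first Control gRNA library. For WT with vincristine against WT untreated, a fit of only those groups called 3529 genes in place of 5498; that fit holds fewer libraries. The counts of the other comparisons stayed within 1.5 times under each alternative run. The low counts of EGR2, ITGA5 and COL1A1 limit what their folds can show.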
